A study of Mus musculus with 8 samples.

Results

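The miR-23, miR-27 and miR-24 miRNAs come from a pair of paralogous clusters, Mir23a, Mir27a and Mir24-2 on mouse chromosome 8 and Mir23b, Mir27b and Mir24-1 on chromosome 13. By name, 10 mature miRNAs of these 6 hairpins were taken, of 1966 mature miRNA names in the count tables and 1019 with at least 1 count: mmu-miR-23a-3p, mmu-miR-27a-3p, mmu-miR-24-3p, mmu-miR-23b-3p, mmu-miR-27b-3p, mmu-miR-23a-5p, mmu-miR-27a-5p, mmu-miR-24-2-5p, mmu-miR-27b-5p and mmu-miR-24-1-5p, written below without the prefix for mouse. The libraries are 8 Illumina small RNA libraries of total RNA from NIH 3T3 (3T3) cells, an immortalised mouse fibroblast line, harvested at 48 h after the cells received CAG-EGFP-MosIR, CAG-EGFP-Lin28IR, U6-MosIR or U6-Lin28aIR. All 4 plasmids express hairpin double-stranded RNA (dsRNA) of Mos or Lin28 sequence, and each has 2 libraries, from separately transfected wells, so wells are the replicates and no untransfected cells are among them. The CAG-EGFP plasmids use the CAG promoter, which RNA polymerase II transcribes, and also carry an EGFP reporter, whereas RNA polymerase III transcribes U6. As the study describes them, the CAG-EGFP plasmids give a longer dsRNA with single-stranded overhangs, and that of CAG-EGFP-Lin28IR also holds a Lin28b segment. Promoter, reporter, hairpin ends and dsRNA length therefore cannot be told apart, nor, for the Lin28 plasmids, can the hairpin sequence. The labels state 250 ng of plasmid per well, whereas the methods for sequencing state another amount.

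A miRNA cluster is transcribed as a single primary transcript, from which Drosha cuts each hairpin and Dicer then releases a duplex of a 5p and a 3p arm. One arm, the guide, is loaded into an Argonaute protein and finds target mRNAs mainly through its seed, bases 2 to 8, while the other arm, the passenger, is mostly degraded. The miR-23, miR-27 and miR-24 guides are the 3p arms. They are known from fibroblasts, endothelium and muscle: in human cells miR-23 represses glutaminase and is itself repressed by MYC, and miR-24 represses cell cycle genes, while in mouse preadipocytes miR-27 inhibits adipocyte differentiation.

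On GRCm38 the 3 hairpins of chromosome 8 span 404 bases of the plus strand, with Mir23a at chr8:84208518-84208592, Mir27a at chr8:84208672-84208758 and Mir24-2 at chr8:84208815-84208921. GENCODE M21 places no other gene over Mir23a or Mir27a, and the lincRNA Gm26532 starts in the last 2 bases of Mir24-2. On chromosome 13 the cluster spans 792 bases of the plus strand, with Mir23b at chr13:63300484-63300557, Mir27b at chr13:63300712-63300784 and Mir24-1 at chr13:63301208-63301275. All 3 lie inside the protein-coding gene 2010111I01Rik on the same strand and opposite an intron of Fancc, a Fanconi anaemia gene. Mir23b is in an intron of 2010111I01Rik, whereas Mir27b and Mir24-1 fall whole within exons of its transcripts. For Mir27b these transcripts are annotated as targets of nonsense-mediated decay. For Mir24-1 they also include transcripts annotated as processed transcript or retained intron. Both Mir24 hairpins have an antisense miRNA gene, Mir3074-2 and Mir3074-1. The counts kept the strands apart at Mir24-2, where the antisense miR-3074-2-3p has 0 counts and miR-24-2-5p, over the same bases, 26413 in all. At Mir24-1 the antisense miR-3074-1-3p has 167 counts in all, beside 260 of miR-24-1-5p over overlapping bases. The other antisense arm, miR-3074-5p, overlaps miR-24-3p and has 270 counts listed at Mir24-2 and 272 at Mir24-1.

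The sequences show which members can share targets, and which can share reads. They are the RefSeq mature miRNAs of GRCm38.p6, 5′ to 3′, with the seed in capitals; 9 of the 10 members matched, and miR-23b-3p is given by name only.
miR-23a-3p: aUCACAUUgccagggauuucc
miR-27a-3p: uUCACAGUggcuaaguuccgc
miR-27b-3p: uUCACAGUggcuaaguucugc
miR-24-3p: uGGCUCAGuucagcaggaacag
miR-23a-5p: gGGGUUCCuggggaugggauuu
miR-27a-5p: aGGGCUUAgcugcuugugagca
miR-27b-5p: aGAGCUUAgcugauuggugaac
miR-24-2-5p: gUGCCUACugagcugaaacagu
miR-24-1-5p: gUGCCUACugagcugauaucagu

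The 3p arms of Mir27a and Mir27b share the seed UCACAGU and are equal at 20 of 21 bases, with the single substitution C19U (from miR-27a-3p to miR-27b-3p, counted from the 5′ end), so a read that ends before base 19 fits both names. Among 1679 mature mouse miRNAs in RefSeq no other has this seed, but bases 1 to 7 of miR-128-3p, a brain-enriched miRNA, are the same letters. The level of miR-128-3p was 49.7 ± 9.18 RPM (SD, n = 8). The 5p arms of the same hairpins differ at 8 of 22 positions, and their seeds, GGGCUUA and GAGCUUA, are not the same. The 5p arms of Mir24-2 and Mir24-1 share the seed UGCCUAC and their first 16 bases. The seed of miR-24-3p, GGCUCAG, occurs in 4 other mature miRNAs, miR-5124b, miR-6369, miR-6410 and miR-6413, which had 0 counts in all 8 libraries, which allows up to 0.185 to 0.233 RPM in a library (3 counts, counting error only). The seed of miR-23a-3p, UCACAUU, occurs in no other sequence read here, among which the sequence of its paralog miR-23b-3p was not analysed.

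The hairpins of the miR-27 and miR-24 paralogs are shown with both mature arms in capitals, since the counts of these arms are set against each other below.
Mir27a hairpin: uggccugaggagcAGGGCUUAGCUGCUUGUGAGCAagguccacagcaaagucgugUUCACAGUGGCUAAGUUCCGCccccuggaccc
Mir27b hairpin: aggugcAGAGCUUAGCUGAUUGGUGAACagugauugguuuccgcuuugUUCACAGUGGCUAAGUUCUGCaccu
Mir24-2 hairpin: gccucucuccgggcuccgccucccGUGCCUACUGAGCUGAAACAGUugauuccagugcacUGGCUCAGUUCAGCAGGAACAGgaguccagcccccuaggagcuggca
Mir24-1 hairpin: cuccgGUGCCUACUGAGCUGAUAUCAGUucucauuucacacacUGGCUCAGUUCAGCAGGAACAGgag

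Each library held 12898619 to 16228597 perfectly mapped reads and 1733203 to 3341065 counts on mature miRNAs. The miRNA counts were 10.9 to 16.5% of the perfectly mapped reads in the CAG-EGFP libraries and 18.7 to 22.1% in the U6 libraries, which do not overlap. The 4 most abundant of 6 fibroblast markers were miR-21a-5p (48266 ± 14575 RPM), miR-143-3p (1489 ± 369), miR-199a-3p (926 ± 115) and miR-199a-5p (516 ± 111) (SD, n = 8). The 6 markers summed to 30699 to 47905 RPM in CAG-EGFP and 57332 to 72581 in U6 libraries, mostly through miR-21a-5p. The 6 blood markers, 2 endothelial markers, the liver marker miR-122-5p, 3 muscle markers, 4 epithelial markers and 3 embryonic stem cell markers summed to at most 2.40 RPM per list and library. The neuronal list reached 218 RPM through miR-9-5p (159 ± 46.5 RPM), while miR-124-3p was at 0.528 ± 0.317 RPM.

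The 10 members together took 6.37 ± 0.635% of all miRNA counts (SD, n = 8; SDs over 8 libraries span the 4 plasmids). Their levels, as counts without mismatches scaled to the perfectly mapped reads of the library (RPM), spanned from the most abundant miRNAs of these cells to a few reads per library. The guide miR-24-3p was highest at 2860.4 ± 480.3 RPM, which is place 11 of the 1019 detected miRNAs, followed by miR-23a-3p at 2611 ± 597 (place 12), miR-27a-3p at 2327 ± 401 (place 17), miR-27b-3p at 1754 ± 357 (place 21) and miR-23b-3p at 523 ± 106 (place 49). The passengers followed with miR-24-2-5p at 226 ± 51.8 RPM (place 66), miR-27a-5p at 80.4 ± 28.7 (place 103), miR-27b-5p at 17.2 ± 5.02 (place 165), miR-23a-5p at 14.7 ± 3.33 (place 172) and miR-24-1-5p at 2.23 ± 0.466 (place 262). Compared within libraries, miR-24-3p had more counts than miR-23a-3p in 7 of 8 and miR-23a-3p more than miR-27a-3p in 6 of 8, so the order of the top 3 was not the same in all libraries. The same held for miR-27b-5p over miR-23a-5p, in 7 of 8, and all other neighbours in the order kept it in 8 of 8. By family, the seed of miR-27 had the most counts, with 4081 ± 699 RPM for its 2 guides, before 3135 ± 702 for the miR-23 guides and miR-24-3p alone.

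**Figure D1:**
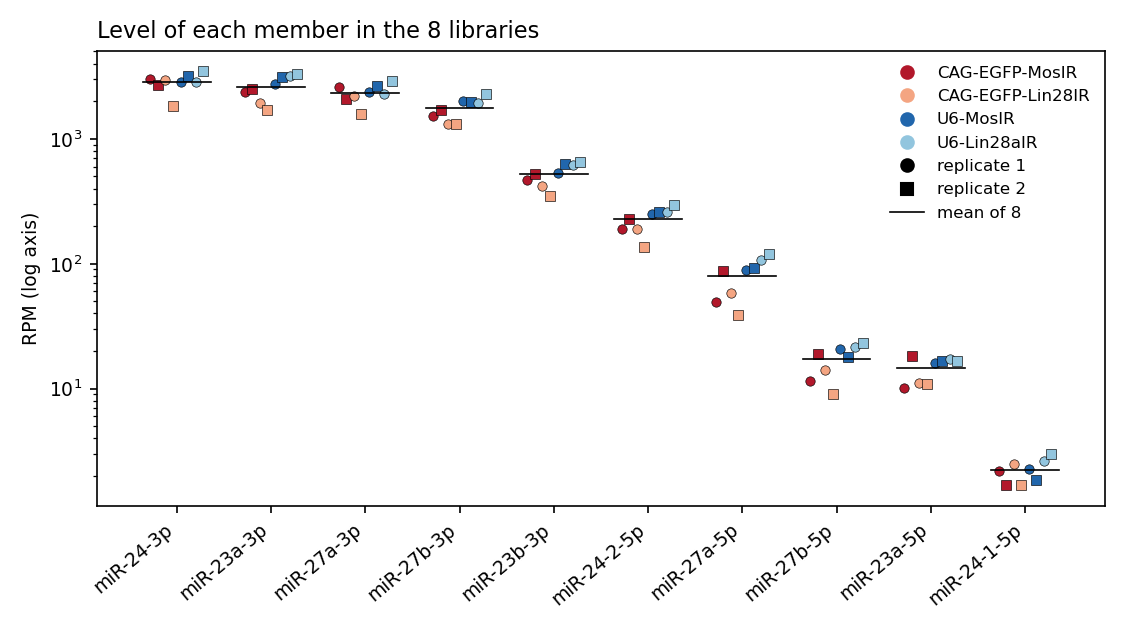
Level of each of the 10 members in RPM (log axis); each point is 1 library, coloured by plasmid and shaped by replicate number, and the line is the mean of 8 libraries. The guides lie between 349 and 3460 RPM in single libraries, and the lowest passenger, miR-24-1-5p, between 1.70 and 2.98 RPM.

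The mature miR-24-3p is made from both clusters, and its counts at the loci of chromosomes 8 and 13 differed by at most 7 in any library, since reads that map to both are listed at both. It was counted once here, and its cluster of origin cannot be told apart from its own counts. The 5p arms, which do differ between the hairpins, were far from equal. The chromosome 8 arm, miR-24-2-5p, had 2680 and 3377 counts with CAG-EGFP-MosIR, 2655 and 2164 with CAG-EGFP-Lin28IR, 4042 and 3646 with U6-MosIR and 3359 and 4490 with U6-Lin28aIR. The chromosome 13 arm, miR-24-1-5p, had 31 and 25, 35 and 27, 37 and 26, and 34 and 45 counts in the same order. The ratio of the arms was 75.9 to 140 across libraries, with a mean of 103 ± 23.9 (SD, n = 8), at counts of the rarer arm that are too low to order the libraries.

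The counts of the other paralogs are listed by name. Reads of the miR-27 guides that end before the base at which they differ fit both names, and their number is not known. How far reads of the miR-23 guides fit both names was not examined. Of the miR-23 and miR-27 guide counts, 68.4 ± 1.78% (SD, n = 8) came from the names of chromosome 8, with a range of 66.2 to 71.4%. This share was not the same for the miR-23 and the miR-27 guides. The level of miR-23a-3p was 4.59 to 5.22 times that of miR-23b-3p, with a mean ratio of 4.96 ± 0.218, whereas miR-27a-3p was only 1.17 to 1.72 times miR-27b-3p, with a mean ratio of 1.35 ± 0.224. Within the chromosome 13 cluster, miR-27b-3p therefore exceeded miR-23b-3p by 3.36 ± 0.284 times, while within the chromosome 8 cluster miR-27a-3p was 0.910 ± 0.142 times miR-23a-3p (both ratios were added after the levels had been seen). Ligation and mapping can differ between sequences, so a ratio of 2 names is a ratio of counts, not of molecules.

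**Figure D2:**
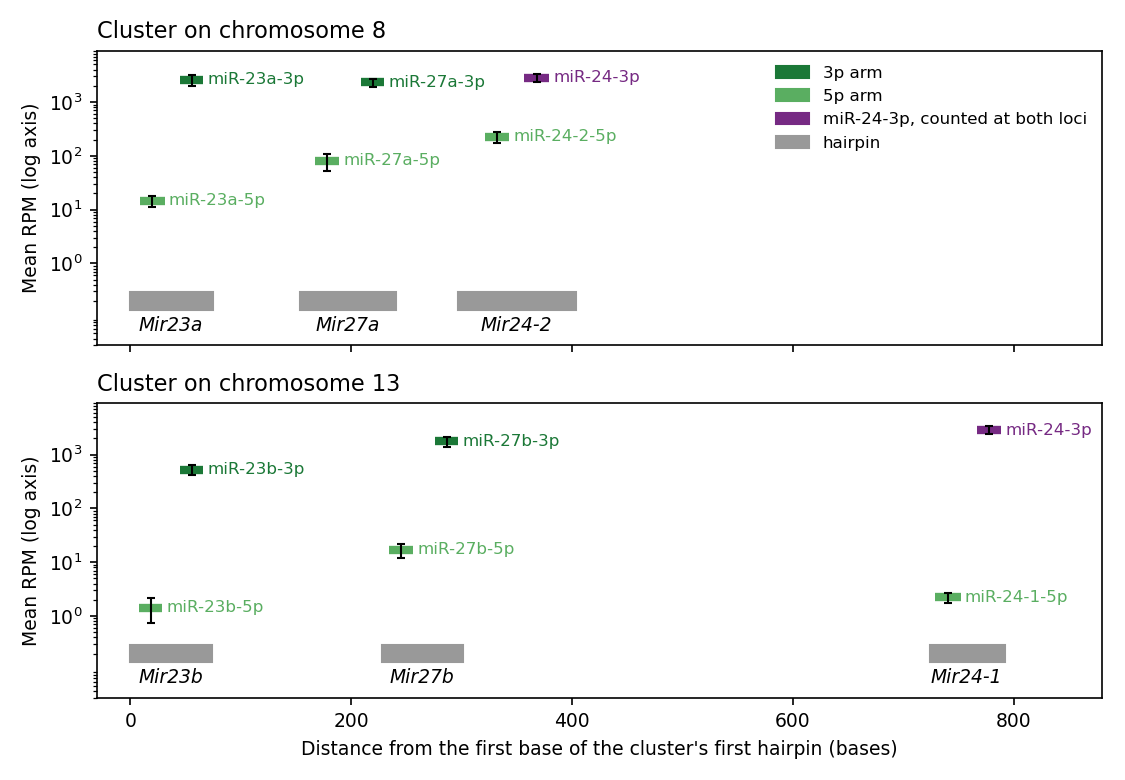
Mean RPM (log axis, coloured segments; error bars are the SD of 8 libraries) of each mature arm at its place in the cluster, with hairpins as grey boxes; miR-23b-5p, which is not among the 10 members, is shown for its hairpin. The 3p arm lies above the 5p arm at Mir23a, Mir27a, Mir23b and Mir27b, and miR-24-3p, whose reads are listed at both of its loci, is drawn at the same level at each.

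In the 4 hairpins whose arms have a single locus, Mir23a, Mir27a, Mir23b and Mir27b, the 3p arm had more counts than the 5p arm, where 40 of 104 other such hairpins with at least 1000 counts had a higher 3p arm. The shared miR-24-3p had more counts than the 5p arms of Mir24-2 and Mir24-1, but its part from each hairpin is not known. The 5p arm made up 0.565 ± 0.0904% of the Mir23a counts, 3.30 ± 0.923% of the Mir27a counts, 0.958 ± 0.157% of the Mir27b counts and 0.271 ± 0.0967% of the Mir23b counts (SD, n = 8). Set against all miR-24-3p counts, the share of miR-24-2-5p was 7.30 ± 0.934% and that of miR-24-1-5p 0.0784 ± 0.0131%. Mir27a thus had a passenger share above that of its paralog Mir27b in each of the 8 libraries, with 1.86 to 4.47% against 0.690 to 1.11%.

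The first question put to the members was whether their levels differed between cells with U6 and with CAG-EGFP hairpin plasmids. None of the 10 passed the test after normalisation to the bulk of the miRNAs, and on the plain RPM scale they moved with the miRNAs as a whole. The guide miR-23a-3p had 2365 and 2505 RPM with CAG-EGFP-MosIR, 1942 and 1686 with CAG-EGFP-Lin28IR, 2762 and 3111 with U6-MosIR and 3191 and 3327 with U6-Lin28aIR. All 4 U6 libraries lay above all 4 CAG-EGFP libraries. The guide miR-27b-3p had 1514 and 1689, 1314 and 1309.8, 2002 and 1965, and 1941 and 2299.6 RPM in the same order, again without overlap. So did miR-23b-3p, with 472 and 524, 423 and 349, 529 and 627, and 615 and 649 RPM. The groups overlapped for the other guides, miR-24-3p with 3016 and 2689.8, 2962 and 1824, 2866 and 3205, and 2859.7 and 3459.7 RPM, and miR-27a-3p with 2603 and 2093, 2205 and 1570.0, 2348 and 2650.1, and 2271 and 2876 RPM. For both, CAG-EGFP-MosIR replicate 1 and CAG-EGFP-Lin28IR replicate 1 reached or neared the U6 libraries, and CAG-EGFP-Lin28IR replicate 2 was the lowest of the 8.

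Of the passengers, miR-27a-5p had 49.3 and 87.5 RPM with CAG-EGFP-MosIR, 57.9 and 39.0 with CAG-EGFP-Lin28IR, 90.0 and 92.8 with U6-MosIR and 106 and 121 with U6-Lin28aIR. Its groups did not overlap, nor did those of miR-24-2-5p, with 136 to 229 RPM in CAG-EGFP and 249 to 297 in U6 libraries. The groups overlapped for miR-27b-5p (9.10 to 19.0 and 18.03 to 23.3 RPM), miR-23a-5p (10.2 to 18.4 and 16.0 to 17.4 RPM) and miR-24-1-5p (1.70 to 2.49 and 1.85 to 2.98 RPM). In all, 5 of 10 members had every U6 library above every CAG-EGFP library, against 31.1% of the 360 miRNAs tested, and 0 of 10 had every U6 library below, against 0.278%. The ratio of the mean RPM, U6 over CAG-EGFP, was 1.181 to 1.75 for the members and had a median of 1.41 over the miRNAs tested. In bulk libraries, fewer cells with a miRNA and less of it per cell cannot be told apart. The share of reads that fall on miRNAs was higher in every U6 library too, and its part in these values was not tested.

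With TMM, a scaling that sets the bulk of the miRNAs equal between libraries, the 360 miRNAs had a median log2 fold change of -0.00, against 0.50 with the deposited library sizes. On this scale, in CPM of the miRNA counts, all 10 members overlapped between U6 and CAG-EGFP, while 2.5% of the miRNAs had every U6 library above and 1.67% every U6 library below. In edgeR's quasi-likelihood test with Benjamini-Hochberg adjustment over the 360 miRNAs, 0 of 10 members passed 0.05, where 0.556% of all miRNAs did, and 1 of 10 had an unadjusted p under 0.05, against 8.89% of all miRNAs. With DESeq2, also 0 of 10 passed, where 0.833% of all miRNAs did. The members' median log2 fold change was -0.02.

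By guide, the log2 fold changes of U6 over CAG-EGFP were 0.06 (95% interval -0.25 to 0.36) for miR-23a-3p and -0.04 (-0.32 to 0.24) for miR-23b-3p. For the miR-27 guides they were -0.24 (-0.57 to 0.09) for miR-27a-3p and -0.00 (-0.31 to 0.30) for miR-27b-3p, and for miR-24-3p -0.26 (-0.59 to 0.08). The lowest adjusted p among the guides was that of miR-24-3p, 0.609 (edgeR). With the deposited library sizes the values of miR-27a-3p and miR-24-3p turned positive, to 0.27 and 0.25, and 6 of the 10 members passed as higher with U6, where 50.3% of all miRNAs did.

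The passenger miR-27a-5p had the largest difference of the members, a log2 fold change of 0.34 ± 0.15 (SE) with a 95% interval of 0.02 to 0.66, an unadjusted p of 0.0410 and an adjusted p of 0.509 (edgeR). It was 0.18 ± 0.22 for the pair of Mos plasmids and 0.49 ± 0.22 for the Lin28 pair, with adjusted p of 0.993 and 0.496 (edgeR), and the difference between these, 0.32 ± 0.31, had an adjusted p of 0.994. The library of CAG-EGFP-MosIR replicate 2 was the highest of the CAG-EGFP libraries for miR-27a-5p. Without it the log2 fold change of U6 over CAG-EGFP was 0.54, and without CAG-EGFP-MosIR replicate 1 it was 0.15 (edgeR). Either fit keeps a single CAG-EGFP-MosIR library, and leaving out replicate 2 removes the highest CAG-EGFP value, so no p is given. Passing in the fit without replicate 2, as 2.58% of 388 miRNAs did, is therefore no test of miR-27a-5p. The other passengers had 0.03 (miR-24-2-5p), 0.15 (miR-27b-5p), -0.09 (miR-23a-5p) and -0.24 (miR-24-1-5p).

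**Figure D3:**
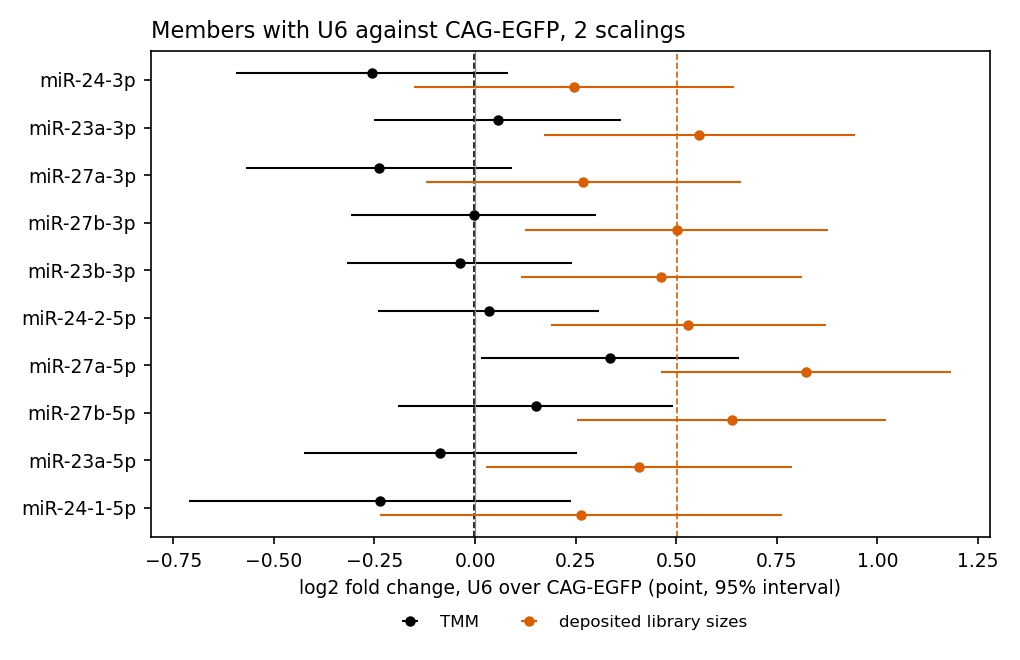
Log2 fold change of each member, U6 over CAG-EGFP, with its 95% interval from edgeR, under TMM (black) and with the deposited library sizes (orange); dashed lines are the medians of all 360 miRNAs under each scaling, -0.00 and 0.50. The members lie around the dashed line of their scaling, and the black interval of miR-27a-5p alone excludes 0.

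Within the Mos pair and the Lin28 pair of plasmids no member passed with TMM either. In U6-MosIR against CAG-EGFP-MosIR 0 of 10 members passed (0% of all miRNAs), with log2 fold changes of -0.18 to 0.18, and in U6-Lin28aIR against CAG-EGFP-Lin28IR 0 of 10 (0.556% of all miRNAs), with -0.33 to 0.49. With the deposited library sizes 0 of 10 passed in the Mos pair, where 0% of all miRNAs did, and 7 of 10 in the Lin28 pair as higher with U6, where 56.4% of all miRNAs did, while the interaction of promoter and hairpin passed for 0 of 10 and 0% of all miRNAs under the same scaling. The guides miR-24-3p and miR-27a-3p had -0.18 and -0.18 with Mos and -0.33 and -0.30 with Lin28. With TMM, 0 members had an unadjusted p under 0.05 in the Mos pair, against 5% of all miRNAs, and 1, miR-27a-5p, in the Lin28 pair, against 7.78%. DESeq2 called 0 members in both, and 0.278% and 0.556% of all miRNAs. Between hairpin sequences, Lin28 against Mos, 0 of 10 members passed in edgeR or DESeq2 (0% of all miRNAs in both), 0 had an unadjusted p under 0.05, against 2.78% of all miRNAs, and 9 of the 10 log2 fold changes lay between -0.02 and 0.04. The exception was miR-24-1-5p at 0.39 ± 0.23 (SE) with an adjusted p of 0.970 (edgeR), at 25 to 45 counts per library. The interaction of promoter and hairpin passed for 0 of 10 members (0% of all miRNAs, in edgeR and DESeq2), and 0 had an unadjusted p under 0.05, against 3.61% of all miRNAs.

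The scaling of libraries drops out of a ratio of 2 members counted in the same library, so 7 such ratios were compared in both contrasts, 14 tests in all, by an exact permutation test (two-sided) that enumerated all 70 ways to split the libraries 4 against 4. The splits ignored which wells share a plasmid, so the p-values take wells, not plasmids, as the unit. The smallest p this design allows is 0.0286. At least 9 of the 14 tests would have to reach it for an adjusted p under 0.05. A lone test that reaches it gives 0.4 after Benjamini-Hochberg adjustment. Only the split with the largest difference reaches it, so the same ratio cannot do so in both contrasts. At most 7 of the 14 tests can therefore reach it. The design thus leaves no ratio a way to pass, and the adjusted p-values cannot decide whether a ratio differed. The lowest adjusted p was 0.4.

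The guide miR-24-3p over miR-23a-3p gave 1.28 and 1.07 with CAG-EGFP-MosIR, 1.53 and 1.08 with CAG-EGFP-Lin28IR, 1.04 and 1.03 with U6-MosIR and 0.896 and 1.04 with U6-Lin28aIR. All U6 libraries lay below all CAG-EGFP libraries, a difference of -0.30 in the mean log2 ratio (exact permutation p = 0.0286, adjusted p = 0.4), and it was -0.18 for the pair of Mos plasmids and -0.41 for the Lin28 pair. Without CAG-EGFP-Lin28IR replicate 1, the highest library, the difference was -0.19. Among all 4560 pairs of the 96 miRNAs with a mean of at least 100 RPM, 7.04% had ratios that did not overlap between U6 and CAG-EGFP.

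The guide miR-23a-3p over miR-23b-3p gave 5.01 and 4.78, 4.59 and 4.83, 5.22 and 4.96, and 5.19 and 5.12 in the same order of plasmids, overlapping by a single library (difference 0.09 on the log2 scale, exact permutation p = 0.0571, adjusted p = 0.4). The guide miR-27a-3p over miR-27b-3p gave 1.72 and 1.24, 1.68 and 1.20, 1.17 and 1.35, and 1.17 and 1.25, with both CAG-EGFP replicate 1 libraries above the other 6 and a difference of -0.22 (exact permutation p = 0.229, adjusted p = 0.64). The arm ratio miR-27a-5p over miR-27a-3p gave 0.0189 and 0.0418, 0.0263 and 0.0248, 0.0383 and 0.0350, and 0.0468 and 0.0420, a difference of 0.59 (exact permutation p = 0.0857, adjusted p = 0.4). In it, CAG-EGFP-MosIR replicate 2 lay among the U6 libraries and the other 3 CAG-EGFP libraries below all of them. The difference was 0.42 to 0.80 when single libraries were left out. It was highest without CAG-EGFP-MosIR replicate 2, whose removal by itself leaves no overlap, so no test is given for it. For Mir23a and Mir27b the arm ratios had differences of -0.12 and 0.17, and for miR-24-2-5p over miR-24-1-5p the difference was 0.27. Between Lin28 and Mos the 7 differences ran from -0.39, for miR-24-2-5p over miR-24-1-5p, to 0.07.

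**Figure D4:**
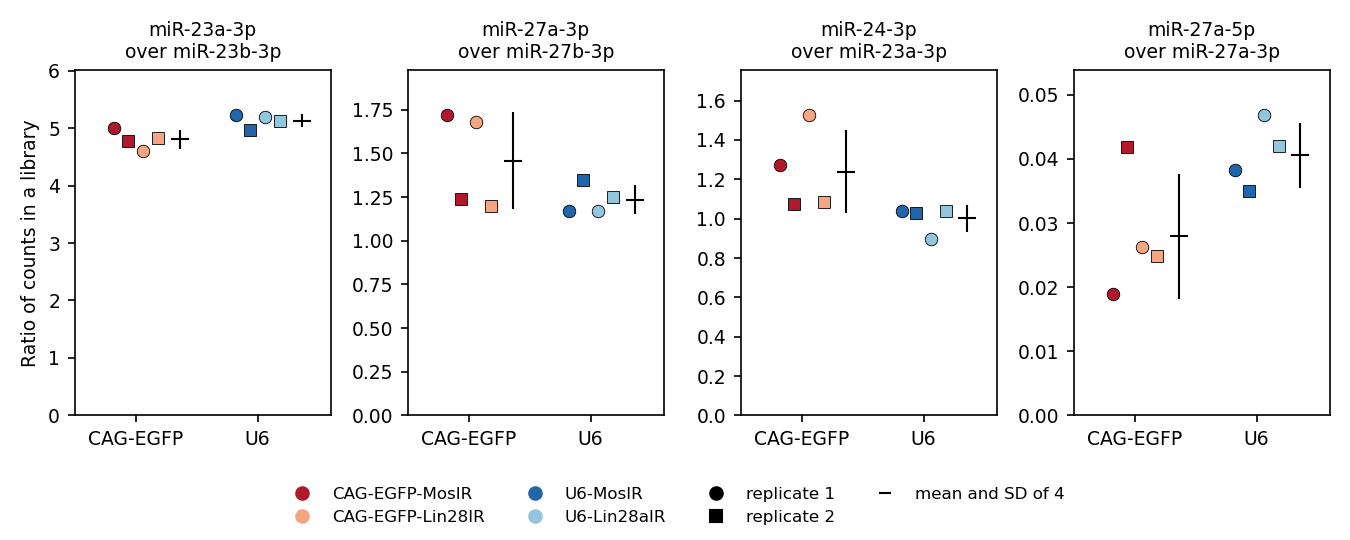
Ratio of counts of 2 members in each library (linear axes from 0), grouped by promoter, with points coloured by plasmid and shaped by replicate number, and the mean and SD of 4 libraries beside them. In the ratio of miR-24-3p to miR-23a-3p the U6 libraries reach up to 1.04 and the CAG-EGFP libraries start at 1.07, and in the ratio of miR-27a-5p to miR-27a-3p 1 CAG-EGFP library, at 0.0418, lies among the U6 libraries.

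Pairs of guides were then compared across libraries. Over the 8 libraries, on the log2 scale of CPM with TMM, miR-27a-3p and miR-24-3p had a Pearson r of 0.94 (exact permutation p = 0.00551, adjusted over the 10 pairs of guides 0.0551) and a Spearman rho of 0.76 (p = 0.0368, adjusted 0.368). Without CAG-EGFP-MosIR replicate 1 and CAG-EGFP-Lin28IR replicate 1, the 2 libraries farthest from the median, r was 0.71. Of all 4560 pairs of miRNAs of at least 100 RPM, 0.263% had an r this high, and the median r was 0.03. For miR-23a-3p, from the first hairpin of the same cluster, r was -0.22 with miR-27a-3p and -0.20 with miR-24-3p (exact permutation p = 0.585 and 0.611, adjusted 0.679 for both; Spearman rho -0.26 for both, p = 0.536, adjusted 0.766). These had no settled sign: without CAG-EGFP-Lin28IR replicate 2 and U6-Lin28aIR replicate 1, the 2 farthest libraries, r was 0.24 and -0.05, and it was 0.62 and 0.48 within the 4 CAG-EGFP libraries and -0.82 and -0.76 within the 4 U6 libraries. Within these groups, miR-27a-3p and miR-24-3p had 0.91 and 0.99. On chromosome 13, miR-23b-3p and miR-27b-3p had an r of -0.74 (exact permutation p = 0.0385, adjusted 0.192) and a rho of -0.52 (p = 0.197, adjusted 0.654), and r was -0.75 without the 2 farthest libraries, -0.77 within CAG-EGFP and -0.90 within U6. The other 6 pairs of guides had r from -0.57 to 0.51, and from -0.49 to 0.47 without the 2 farthest libraries of each. CPM values share a sum, and these pairs were examined after the levels had been seen.

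Outside the 10 members, the miRNAs most like each guide over the 8 libraries, among 90 others of at least 100 RPM, are named as a description, with no test. For miR-27a-3p they were miR-199a-5p (r = 0.92), miR-16-5p (0.79) and miR-186-5p (0.79), and for miR-24-3p the same 3 names, miR-186-5p (0.81), miR-16-5p (0.81) and miR-199a-5p (0.76). For miR-23a-3p they were miR-15b-5p (0.76), miR-503-5p (0.72) and miR-151-5p (0.71), for miR-23b-3p miR-1291 (0.77), miR-652-3p (0.75) and miR-31-5p (0.69), and for miR-27b-3p miR-101b-3p (0.76), miR-143-3p (0.72) and miR-148b-3p (0.69).

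Other miRNAs with the roles known for these clusters did not pass the test of U6 against CAG-EGFP either, where 0.556% of all 360 miRNAs passed. Of the MYC-repressed miRNAs, a group that also holds let-7, miR-26 and miR-29, 0 of 17 tested passed in U6 against CAG-EGFP (edgeR with TMM). Their median log2 fold change was -0.06, beside -0.00 for all miRNAs. Among them, let-7a-5p (6094 ± 1384 RPM, SD, n = 8) had -0.11, miR-26a-5p (5482 ± 1641) 0.21, let-7g-5p (4215 ± 1091) 0.01 and miR-29a-3p (3604 ± 858) -0.03. Of the miRNAs of adipocyte differentiation 0 of 14 passed, with a median of 0.07, and miR-30a-5p (2589 ± 626 RPM), miR-30d-5p (1969 ± 535), miR-143-3p and miR-378a-3p (648 ± 155) had -0.02, 0.11, 0.04 and 0.08. Of the miRNAs of angiogenesis 0 of 11 tested passed, with a median of 0.12, and miR-92a-3p (2428 ± 452 RPM), miR-221-3p (1047 ± 248), miR-222-3p (877 ± 217) and miR-20a-5p (624 ± 162) had -0.11, 0.06, 0.05 and 0.12. At an unadjusted p under 0.05 there were 0, 0 and 1 miRNAs of the 3 lists, in that order, against 8.89% of all miRNAs. DESeq2 called 0, where it called 0.833% of all miRNAs. With the deposited library sizes the 3 lists had median log2 fold changes of 0.45, 0.58 and 0.62, beside 0.50 for all miRNAs. In RPM, each list summed higher in every U6 library than in any CAG-EGFP library. In Lin28 against Mos, 0 miRNAs of these lists passed in edgeR or DESeq2, where 0% of all miRNAs did in both. There, 0 had an unadjusted p under 0.05, against 2.78% of all miRNAs.

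The members differed in how many of their counts held a mismatch to the genome. The share of counts that carried 1 or 2 mismatches, over the 8 libraries, was 0.352% for miR-27b-3p, 0.364% for miR-27a-3p, 0.460% for miR-23a-3p, 0.497% for miR-24-2-5p, 0.512% for miR-24-3p and 0.534% for miR-23b-3p. All 6 lay below 0.675%, the median of the 96 miRNAs with a mean of at least 100 RPM, and for miR-27b-3p only 2 of the 96 were lower. In single libraries the shares of the 5 guides were 0.288 to 0.637%. Only 993 counts of miR-27a-3p held a mismatch, beside 205626 perfect counts of miR-27b-3p, which is 1 substitution away, so reads of the paralog that cover base 19 were not listed as mismatched reads of miR-27a-3p. The 4 members under 100 RPM had higher shares, 0.646% for miR-27a-5p, 0.924% for miR-23a-5p, 1.04% for miR-27b-5p and 1.14% for miR-24-1-5p, the last 3 above the median of the 96. They rest on 61, 16, 21 and 3 counts with a mismatch in the same order.

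**Figure D5:**
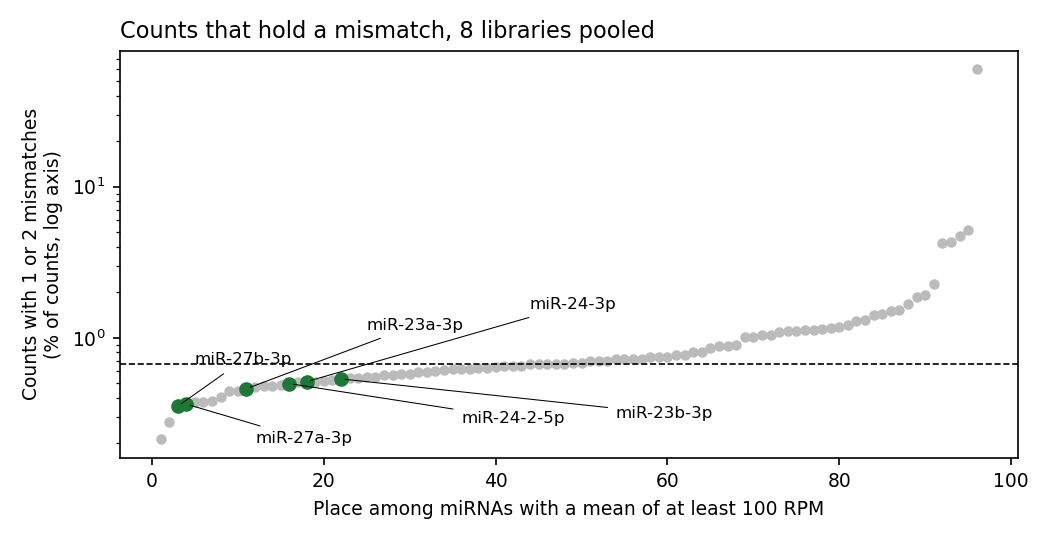
Share of counts with 1 or 2 mismatches (log axis, 8 libraries pooled) of the 96 miRNAs with a mean of at least 100 RPM, in ascending order; green points are members and the dashed line is the median, 0.675%. The 6 members lie between 0.352 and 0.534%, all under the dashed line.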

How the data were processed

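Per the methods, the authors trimmed adapters and 4 bases at each end, mapped the reads with STAR to the mouse genome with the plasmids added, and allowed at most 2 mismatches and retained reads that map to several places; STAR 2.5.3a and mm10 are named in the submitters' processing notes. They deposited raw counts for every miRBase locus of a mature miRNA, with up to 0, 1 or 2 mismatches, and the counts of mapped reads per library. For the rule that assigned a read to a locus, the sources used here give nothing. A name with several loci was counted once, at its highest locus. RPM are counts without mismatches scaled to the perfectly mapped reads of any length. The 4 plasmids were fitted together over the 8 libraries with edgeR 4.0.16 in R 4.3.3 (TMM, filterByExpr, robust quasi-likelihood F test, Benjamini-Hochberg over 360 miRNAs, threshold 0.05). Ratios needed at least 10 counts of each member in every library. The edgeR step was tested on simulated data. Alternatives were DESeq2 1.42.0, other scalings, filters and mismatch limits, summed loci, the replicate number as a block, and leaving out each library (for the mismatch shares, added after the data were seen). A count of 0 allows 0.185 to 0.233 RPM (3 counts); floors and intervals of counts cover counting error only. Named miRNAs are the members, the 3 most alike per guide, the 4 most abundant per list and those that share a seed. The members and lists were chosen with earlier results of these data known. Wells are the replicates behind every p-value, and the permutations for ratios and correlations ignored which wells share a plasmid. The siRNAs of the plasmids' hairpins were not analysed here.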

Additional observations from a re-analysis of the deposited data

Results flagged for a closer look

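In 36 groups of 4 libraries (10 levels, 7 ratios and the members' share of miRNA counts, each in CAG-EGFP and in U6 libraries), 3 had a library far from the other 3 by Dixon's criterion, where chance gives about 1 in 20, or 1.8. In the U6 libraries, miR-27b-3p was at 2299.6 RPM in U6-Lin28aIR replicate 2 and at 1941 to 2002 RPM in the others. In the CAG-EGFP libraries, the passenger miR-23a-5p was at 18.4 RPM in CAG-EGFP-MosIR replicate 2 and at 10.2 to 11.1 RPM in the others, and that library was the highest CAG-EGFP library for 7 of the 10 members, guides and passengers, and had the highest share of miRNA counts of the CAG-EGFP libraries, 16.5%. In the U6 libraries, the ratio of miR-24-3p to miR-23a-3p was 0.896 in U6-Lin28aIR replicate 1 and 1.03 to 1.04 in the others.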

How the results depend on the processing

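No member passed the threshold in any of the 5 comparisons under DESeq2, DESeq2's size factors, other filters, 1 or 2 mismatches, summed loci or without robust estimation. Under these settings, only 0 to 4 of the 187 to 1019 miRNAs tested passed in a comparison. With the deposited library sizes 6 members passed in U6 against CAG-EGFP and 7 in U6-Lin28aIR against CAG-EGFP-Lin28IR, all higher with U6, where 50.3% and 56.4% of the 360 miRNAs passed as higher with U6, and 0 members and 0 miRNAs in U6-MosIR against CAG-EGFP-MosIR; this scaling leaves in the shift of the median, 0.50. It also turned the log2 fold changes of U6 over CAG-EGFP to 0.27 for miR-27a-3p, 0.25 for miR-24-3p, 0.46 for miR-23b-3p, 0.50 for miR-27b-3p, 0.41 for miR-23a-5p and 0.26 for miR-24-1-5p, those of miR-27a-3p and miR-24-3p to 0.090 and 0.0897 with Mos and to 0.45 and 0.40 with Lin28. With no filter, miR-27b-3p had 0.029. Over all 5 comparisons the sign of a member's value changed in 28 of 50 values with the deposited sizes, in 31 of 445 under the other settings, each of them at most 0.06 in size, and in 80 of 400 when a library was left out; the cause was not tested.

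The replicate block left 0 members past the threshold in each comparison and 2 miRNAs in U6 against CAG-EGFP, as without it. Deviations of same-numbered libraries from their plasmid means had correlations of -0.165 to 0.160 between plasmids, over 360 miRNAs. Such values cannot decide whether libraries of the same number were handled together, which was not tested.

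When a library was left out, its plasmid kept a single library and the fit took the spread from the other plasmids, so only effect sizes are given. The log2 fold change of U6 over CAG-EGFP kept its sign for miR-27a-5p, at 0.15 to 0.54. Those that changed sign ranged from -0.067 to 0.050 for miR-27b-3p, -0.28 to 0.12 for miR-23a-5p, -0.035 to 0.092 for miR-24-2-5p and -0.012 to 0.32 for miR-27b-5p. With Mos they ranged from -0.37 to 0.040 for miR-27a-3p and -0.15 to 0.58 for miR-27a-5p, whose interaction ranged from -0.10 to 0.60. The log2 ratios of U6 over CAG-EGFP kept their sign without any library. Those of Lin28 over Mos ranged from -0.043 to 0.015 (miR-23a-3p over miR-23b-3p), -0.17 to 0.066 (miR-27a-3p over miR-27b-3p), -0.13 to 0.12 (miR-24-3p over miR-23a-3p), -0.11 to 0.14, -0.19 to 0.21 and -0.092 to 0.16 (5p over 3p arm of miR-23a, miR-27a and miR-27b). Mismatch limits and summed loci moved no ratio across 0.

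With the perfectly mapped 18-30-nt reads as the denominator of RPM, the mean levels were 10304 (miR-23a-3p), 9249.8 (miR-27a-3p), 11352 (miR-24-3p), 2069 (miR-23b-3p), 6949 (miR-27b-3p), 58.0 (miR-23a-5p), 313 (miR-27a-5p), 889.8 (miR-24-2-5p), 67.2 (miR-27b-5p) and 8.86 (miR-24-1-5p). With all miRNA counts as the denominator they were 15796, 14366, 17639, 3184, 10674, 89.2, 472, 1364, 102 and 13.8 in the same order. Summing the loci, which counts the same reads again, gave 5721 RPM for miR-24-3p. The passenger miR-24-1-5p had 25 to 45 counts per library, the fewest of the members.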
